A study of Drosophila ananassae with 54 samples.

Results

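In Drosophila ananassae, 60 genes had transcripts that were lower after cold acclimation in the hindgut and in the Malpighian tubules while their line-averaged level in the body stayed nearly the same. They were chosen by their measured cold responses from 14365 genes. CPM, the share of a library's counts scaled to 1000000, was taken from the column sums of the deposited count table, and the cold response of a gene was the log2 ratio of its mean CPM in the cold to its mean CPM at control temperature, with 0.5 CPM added to both. Of the 5818 genes with a mean of at least 5 CPM at both temperatures in all 3 tissues, 3558 had a line-averaged body response within 0.3 of 0 on the log2 scale. From these candidates the 60 with the lowest weakest organ response were taken, the weakest being the highest of the 6 responses of 3 lines in 2 organs. The last genes inside were GF15236 at -0.253 (rank 59) and GF17521 at -0.248 (rank 60), and the next ones outside were GF11090 at -0.246 and GF13845 at -0.245. Of the candidates, 303 had all 6 organ responses below 0. Because cold against control in all 3 tissues chose the genes, every cold response given for them is a description and supports nothing.

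The flies were adult males of 3 lines, each of them a pool of isofemale lines. FastBKK (4 isofemale lines) and SlowBKK (4 isofemale lines) came from Bangkok and were labelled tolerant and sensitive to cold, and KATH (3 isofemale lines) came from Kathmandu and was labelled tolerant. From the day after eclosion, flies of the cold group spent 4 days at 10 °C and then had 90 min of recovery, while control flies spent 4 days at 22 °C, with no recovery listed, so that cold and recovery cannot be told apart. Each line, tissue and temperature had 3 libraries, 54 in all. A hindgut or tubule library pooled 60 individuals and a body library 10 individuals. The RNA of both organs was extracted with one kit and that of the body with another, and hence levels in the body were not tested against levels in the organs. Nothing in the labels says whether the replicates came from separate cultures or days, so p-values measure the spread between these libraries, which may be partly technical.

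In insects, the Malpighian tubules secrete the primary urine by moving ions and water out of the blood, and the hindgut takes ions and water back before excretion. Cold can disturb this balance, and chill tolerance in flies is known to go along with keeping it. In bulk samples such as these, fewer cells of a type and less RNA per cell cannot be told apart. The deposited table gives the genes by FlyBase identifier and GF symbol without a product name, so no function is assigned to them here, and the labelled organs could not be checked against named marker genes.

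Libraries held 30.7 to 48.8 M counts (median 34.3 M). In 3 libraries transcripts of another tissue stood apart. In FastBKK control hindgut replicate 3, 795 genes abundant in the body (mean of 50 CPM or more) and nearly silent in both organs (median below 1 CPM) stood at a median of 5.31% of their body level, against at most 0.399% in the other hindgut libraries and 0.675% in the tubule libraries. Of the 60 genes, 21 had their lowest and 3 their highest control hindgut level in this library. The median FastBKK hindgut response of the 60 genes was -0.54 with this library and -0.62 without it, and all 60 responses stayed below 0, the highest at -0.26. By 283 genes abundant in the hindgut (mean of 50 CPM or more) and nearly silent in the tubule (median below 1 CPM), hindgut transcripts stood at a median of 1.4% of their hindgut level in KATH cold tubule replicate 4 and at 0.775% in FastBKK cold tubule replicate 1, against 0.045% to 0.333% in the other tubule libraries. Among the 9 cold tubule libraries, 16 of the 60 genes had their highest level in the first of these and 15 in the second. Without the first, the median KATH tubule response of the 60 genes went from -0.73 to -0.755 and the highest from -0.25 to -0.15. Without the second, the median FastBKK tubule response went from -0.66 to -0.65 and the highest from -0.26 to -0.10. The part of these transcripts in the responses was not tested. The 5818 genes at the minimum level had median line-averaged cold responses, on the CPM scale, of 0.29 (hindgut), 0.21 (tubule) and 0.11 (body). With the scaling by trimmed mean of M values (TMM) used in the fits, the median response of all genes tested, a larger set, lay near 0 in each line. Fitted organ responses of the 60 genes therefore lie lower than their CPM responses throughout.

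The 10 genes with the lowest weakest organ response were GF17399 (FBgn0094417), GF11794 (FBgn0088834), GF11233 (FBgn0088273), GF12448 (FBgn0089485), GF13639 (FBgn0090667), GF16233 (FBgn0093255), GF14814 (FBgn0091841), GF10772 (FBgn0087812), GF21216 (FBgn0098218) and GF24345 (FBgn0101339). GF11794, GF11233, GF12448 and GF13639 lay on scaffold_13266, GF17399 and GF16233 on scaffold_13340, GF10772 and GF24345 on scaffold_13337 and GF21216 on scaffold_13117. GF14814 lay on scaffold_13230. The values below are given as the lowest, the median and the highest CPM of the 9 libraries of a tissue and temperature.

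GF17399, of 7831 bases, led the list with a weakest organ response of -0.81. Its hindgut level was 17.1, 23.5 and 27.2 CPM at control and 5.97, 8.83 and 15.8 CPM after cold. Its tubule level was 99.0, 115 and 127 CPM at control and 37.9, 47.2 and 55.8 CPM after cold. In both organs every cold library lay below every control library. In the body it stood at 48.2, 55.5 and 61.1 CPM at control and 44.4, 53.4 and 57.6 CPM after cold, with the temperatures overlapping. The fitted hindgut change was -1.74 ± 0.19 (SE) in FastBKK, -1.73 ± 0.19 in SlowBKK and -1.15 ± 0.18 in KATH, with 3 libraries per group.

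GF11794, of 3204 bases, had the lowest line-averaged hindgut response of the 60 genes, -1.62. Its hindgut level was 478, 635 and 757 CPM at control and 127, 204 and 297 CPM after cold, without overlap. In the tubule it was 182, 274 and 356 CPM at control and 131, 157 and 210 CPM after cold. There the groups overlapped, although within each of the 3 lines the cold libraries lay below the control libraries. In the body the order was the other way, with 160, 171 and 204 CPM at control and 185, 192 and 223 CPM after cold, and the 3 FastBKK cold body libraries (223, 208 and 201 CPM) lay above the 3 FastBKK control body libraries (171, 160 and 160 CPM).

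GF11233 and GF13639 shared a split among the FastBKK hindgut libraries. GF11233 was at 33.2, 45.5 and 68.3 CPM in control hindgut and at 10.6, 13.7 and 47.5 CPM in cold hindgut. FastBKK cold hindgut replicates 3 and 4 held 47.5 and 45.1 CPM, while replicate 1 of that group held 18.1 CPM and the KATH cold hindgut libraries held 13.3 to 13.7 CPM. GF13639 was at 19.9, 28.2 and 42.2 CPM in control hindgut and at 8.24, 10.4 and 35.3 CPM in cold hindgut. Here too FastBKK cold replicates 3 and 4 were high, at 27.6 and 35.3 CPM, against 11.2 CPM in replicate 1. In the tubule GF13639 showed no overlap, with a shift from 24.5, 32.8 and 37.1 CPM to 10.6, 12.2 and 14.1 CPM.

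The other leading genes ranged more narrowly. GF12448 had 64.4, 73.2 and 91.0 CPM in control hindgut and 38.8, 45.7 and 50.6 CPM in cold hindgut. GF14814 had 49.3, 57.9 and 59.6 CPM in control hindgut and 31.2, 35.2 and 43.4 CPM in cold hindgut. GF16233 had 79.7, 110 and 158 CPM in control hindgut and 50.7, 66.3 and 79.5 CPM in cold hindgut. In these 3 genes the cold hindgut libraries all lay below the control ones, by the smallest margin in GF16233. In the tubule, GF14814 separated as well, with 45.0, 53.6 and 64.6 CPM against 25.2, 32.6 and 41.7 CPM, while GF12448 and GF16233 overlapped. For GF12448 only KATH cold tubule replicate 4 overlapped, with 43.5 CPM against 42.6 CPM in the lowest control library and at most 32.6 CPM in the other cold libraries. The part of that library's hindgut transcripts in this value was not tested.

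GF10772, GF21216 and GF24345 were lower in both organs, with the larger line-averaged log2 decrease in the tubule. GF10772 went from 36.2, 55.2 and 61.9 CPM to 9.36, 20.5 and 27.9 CPM there, and from 52.3, 86.3 and 107 CPM to 37.7, 47.2 and 69.2 CPM in the hindgut, where the groups overlapped. GF21216 went from 56.4, 74.7 and 102 CPM to 23.4, 27.4 and 48.2 CPM in the tubule and from 113, 132 and 148 CPM to 72.4, 82.3 and 96.0 CPM in the hindgut. GF24345 went from 99.0, 128 and 173 CPM to 32.2, 55.9 and 74.0 CPM in the tubule and from 195, 231 and 289 CPM to 116, 133 and 158 CPM in the hindgut. Both of these separated in both organs. In the body the medians at control and after cold were 177 and 177 CPM for GF10772, 177 and 163 CPM for GF21216, and 116 and 100 CPM for GF24345.

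**Figure D1:**
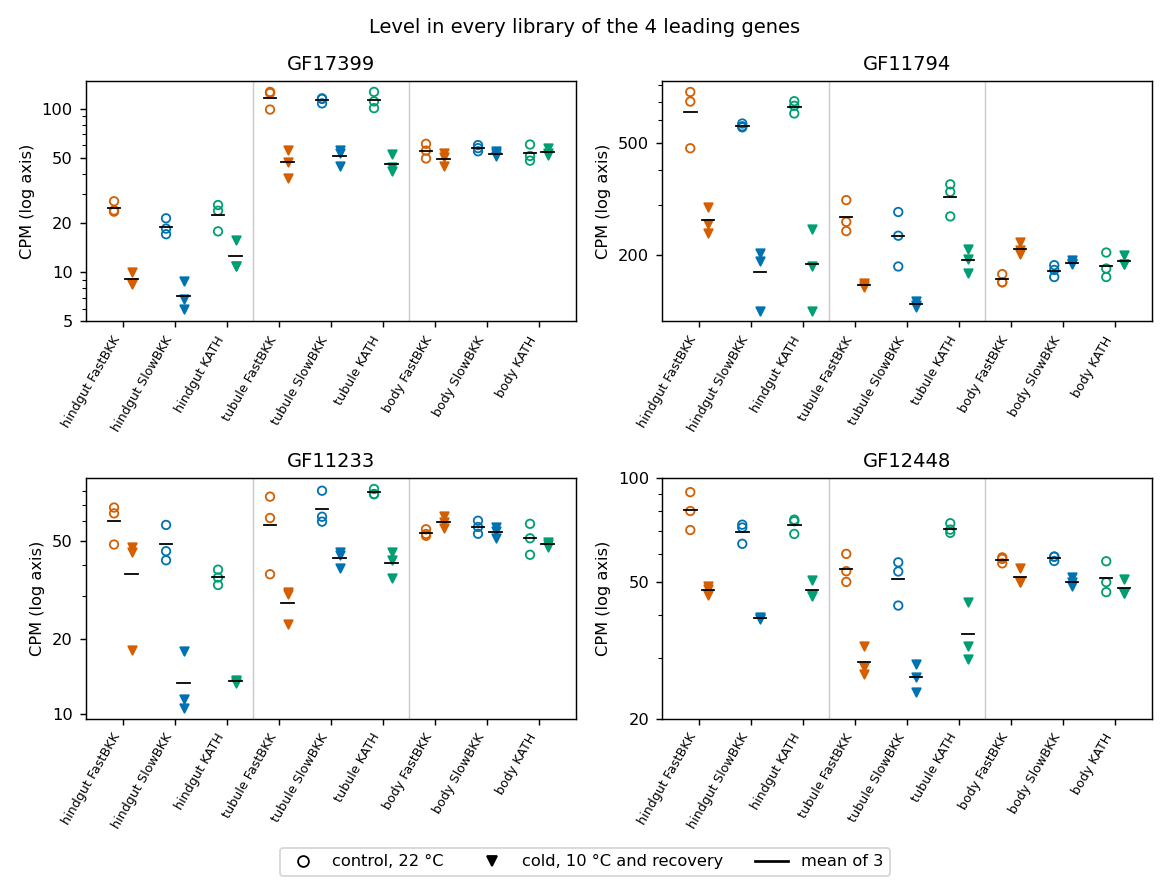
CPM (log axis) of GF17399, GF11794, GF11233 and GF12448 in each of the 54 libraries, with open circles for control, filled triangles for cold and a bar for the mean of 3 libraries. In hindgut and tubule the triangles lie below the circles of the same line, most narrowly for GF11233 in FastBKK hindgut (47.5 CPM against 48.4 CPM), and in the body they overlap or lie close, with GF11794 higher after cold in FastBKK.

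Across the 60 genes the line-averaged CPM response had a median of -0.56 for hindgut (range -1.62 to -0.32), -0.66 for tubule (range -1.69 to -0.31) and -0.09 for body (range -0.30 to 0.27). With all 9 cold libraries set against all 9 control libraries, 37 of the 60 genes lay wholly lower after cold in the hindgut, where 5.9% of the 5818 genes did. In the tubule 35 did, against 7.61% of those genes, and without the 2 cold tubule libraries with hindgut transcripts 40 did, against 9.18%. In the body 4 genes did (GF12951, GF14857, GF15946 and GF13564), against 7.41%, and GF15236 was the 1 gene whose cold body libraries all lay higher, against 20.1%. Within a line, with 3 libraries against 3, hindgut libraries lay wholly lower after cold for 50 genes in FastBKK (12.8% of the 5818), 60 in SlowBKK (17.1%) and 54 in KATH (15.1%). In the tubule these counts were 48 in FastBKK (18.3%), 58 in SlowBKK (20.3%) and 57 in KATH (22.0%).

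**Figure D2:**
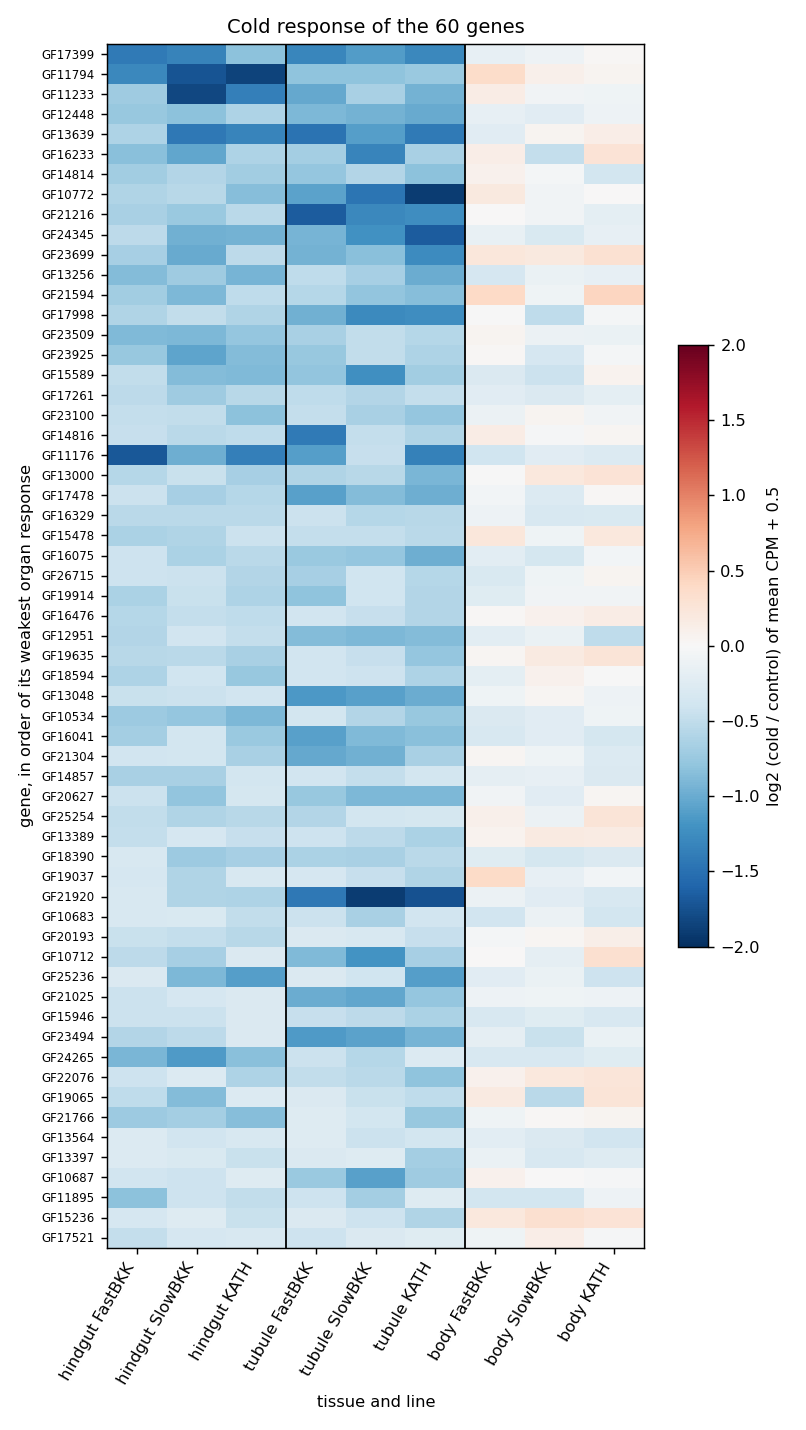
Cold response of the 60 genes (rows, ordered by their weakest organ response) in each tissue and line (columns), as the log2 ratio of mean CPM plus 0.5, blue for lower and red for higher after cold. All 6 organ columns are blue in every row, as the choice of genes requires, and the body columns are pale in both colours, with line-averaged values from -0.30 to 0.27.

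In the edgeR quasi-likelihood fit over all genes of a tissue, a gene was called at a Benjamini-Hochberg adjusted p under 0.05, and all 60 genes were tested in each tissue. In the hindgut 58 of them were called lower in FastBKK (23.1% of the 11323 genes tested), 60 in SlowBKK (25.5%) and 58 in KATH (23.0%). In the tubule 58 were called lower in FastBKK (21.3% of 10132), 58 in SlowBKK (22.2%) and 58 in KATH (23.4%). The median fitted change of the 60 in FastBKK, SlowBKK and KATH was -0.83, -0.94 and -0.90 for the hindgut and -0.87, -0.91 and -0.95 for the tubule, while over all tested genes the medians were between -0.01 and 0.05. Without FastBKK cold tubule replicate 1, 54 were called in FastBKK tubule, and without KATH cold tubule replicate 4, 57 in KATH tubule. All 6 organ comparisons called 55 of the 60 genes, a count that was not made for all genes tested. The other 5 were GF11176, GF11895 and GF25236, each missed in 1 comparison, GF19037, missed in 3, and GF19065, missed in 4. With column sums in place of TMM, the median of all tested genes moved to 0.28, 0.37 and 0.33 for hindgut and 0.19, 0.34 and 0.20 for tubule, and 53, 58 and 54 of the 60 were then called lower in hindgut and 54, 51 and 54 in tubule.

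The organs did not share the size of the change gene by gene. By the line average, 38 of the 60 genes were lower in the tubule than in the hindgut, and the median of tubule minus hindgut was -0.06. These are CPM responses, for which the median of the 5818 genes was also lower in the tubule (0.21) than in the hindgut (0.29). No share of all genes was taken for the counts in this paragraph, so they do not set the 60 genes apart. More than a 2-fold decrease was seen in the hindgut for 5 genes and in the tubule for 10. GF21920 had the largest tubule excess, -1.18, and the lowest tubule response of all, -1.69. Its tubule level was 153, 193 and 318 CPM at control and 36.9, 71.0 and 94.8 CPM after cold, whereas in the hindgut it went from 28.1, 32.0 and 40.8 CPM to 17.6, 24.6 and 27.5 CPM. Cold and control libraries of GF21920 did not overlap in either organ. GF11794 stood at the other end, with a tubule response 0.84 above its hindgut response. The weakest of the 6 organ responses was a hindgut one in 36 genes, most often that of KATH (16 genes), and a tubule one in the others, most often that of FastBKK (10 genes).

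**Figure D3:**
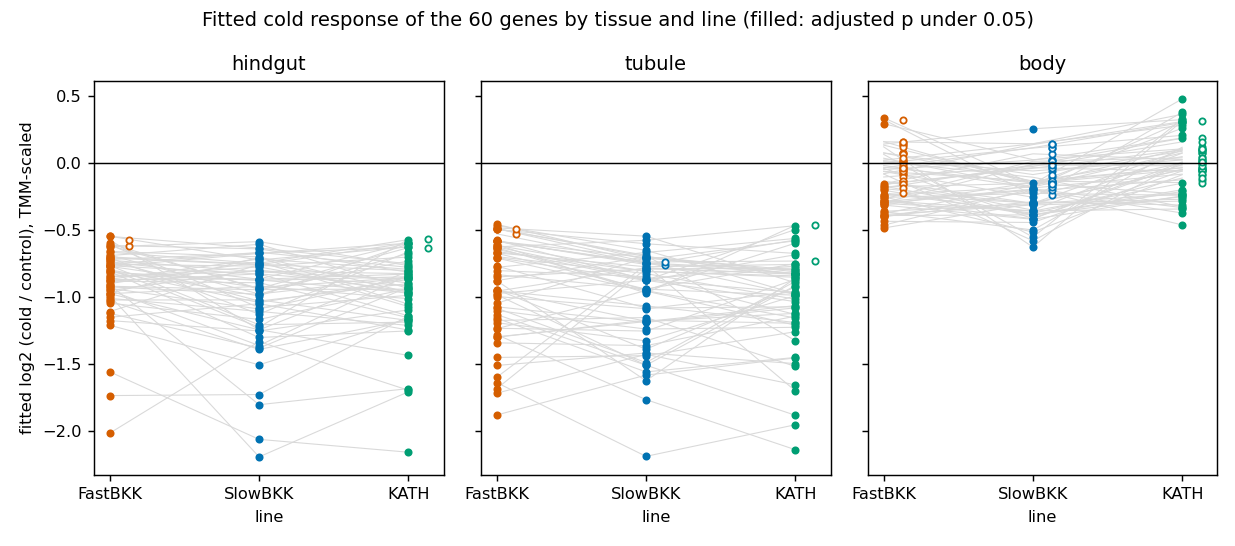
Fitted log2 change after cold (TMM-scaled, vertical axis) of the 60 genes in each line, 1 panel per tissue, with filled points for an adjusted p under 0.05, open points set to the right for the rest and grey lines joining a gene across lines. In both organs all points lie below 0, and in the body they lie on both sides of it, with 28, 30 and 16 filled points below 0 in FastBKK, SlowBKK and KATH.

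The steady body level held for the average over the lines and less so within a line. In the body 42 genes had a line-averaged response below 0 and 18 above it, 29 went beyond 0.3 in at least 1 line, 29 had responses of both signs among the lines, and 7 were above 0 in all 3 lines. The fit called 28 of the 60 lower and 2 higher in FastBKK (25.2% of 13435 genes were called lower and 25.2% higher), 30 lower and 1 higher in SlowBKK (24.0% and 23.4%), and 16 lower and 12 higher in KATH (28.9% and 29.7%). With column sums these became 18 lower and 5 higher, 23 lower and 4 higher, and 17 lower and 8 higher. No body call was made for 9 genes, 25 were called in 1 line, 14 in 2 lines and 12 in all 3 lines, the last 12 each time lower. Such counts over the lines were not made for all genes tested, so no share stands beside them. Calls in both directions among the lines were made in 2 genes, GF16233 and GF10712, each lower in SlowBKK and higher in KATH. With column sums neither gene was called in both directions. The SlowBKK call of GF10712 was lost without SlowBKK cold replicate 4 or SlowBKK control replicate 2 or 3, and the KATH call of GF16233 was lost with DESeq2 size factors and without KATH cold replicate 2 or 3, KATH control replicate 1 or 2, SlowBKK cold replicate 1, SlowBKK control replicate 2, 3 or 4, or FastBKK cold replicate 2 (fitted values from 0.22 to 0.36).

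GF19065 had the widest spread of body responses over the lines, 0.80. Its SlowBKK body libraries held 24.8, 24.3 and 20.2 CPM at control and 16.7, 17.4 and 12.9 CPM after cold. In FastBKK they held 19.1, 16.0 and 14.7 CPM at control and 19.2, 20.5 and 17.2 CPM after cold, and in KATH 10.9, 16.5 and 17.6 CPM at control and 20.1, 17.4 and 16.5 CPM after cold. Only in SlowBKK were the libraries of the 2 temperatures apart. GF16233 spread by 0.76 in the same order, with 69.2, 74.6 and 70.8 CPM at control and 52.5, 57.1 and 43.8 CPM after cold in SlowBKK, and with 44.9, 54.7 and 60.5 CPM at control and 68.8, 66.1 and 59.2 CPM after cold in KATH. GF19037 spread by 0.56, and there FastBKK stood out, with 33.1, 31.9 and 27.2 CPM at control and 43.3, 39.7 and 38.3 CPM after cold, a fitted difference of 0.32 ± 0.13 that was not called, although it was called by DESeq2 (0.32), with column sums (0.40), and without KATH cold body replicate 2 or 3 or KATH control body replicate 1 or 4 (0.31 to 0.32). Among the 7 genes above 0 in all 3 lines, GF23699 had body responses of 0.22, 0.20 and 0.30 in FastBKK, SlowBKK and KATH, and GF22076 had 0.09, 0.21 and 0.24. In GF15236, another of them, all 9 cold body libraries lay above all 9 control ones. Its body level was 238, 245 and 281 CPM at control and 292, 302 and 324 CPM after cold, while the organs went from 156, 171 and 208 CPM to 122, 139 and 147 CPM in the hindgut and from 146, 171 and 207 CPM to 105, 126 and 142 CPM in the tubule.

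The difference between lines in cold response was called by edgeR for 0 of the 60 genes in each organ contrast, with background shares of 0.574% (hindgut) and 0.671% (tubule) for FastBKK minus SlowBKK and 0.636% and 0.227% for KATH minus FastBKK. At an unadjusted p under 0.05 there were 8, 6, 8 and 7 genes in these 4 contrasts, and DESeq2 called 2, 1, 1 and 0. The shares above are for adjusted edgeR calls and cannot be set beside these counts, for which no share of all genes was taken. In the body 1 gene was called for FastBKK minus SlowBKK (3.22% of genes tested) and 9 for KATH minus FastBKK (14.1%). Leaving out FastBKK cold hindgut replicate 1 gave 4 hindgut calls for FastBKK minus SlowBKK and 1 for KATH minus FastBKK, and leaving out SlowBKK cold hindgut replicate 2 gave 1 for FastBKK minus SlowBKK. In the tubule, 1 call for KATH minus FastBKK appeared without FastBKK control replicate 3 or KATH cold replicate 4.

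The levels at control temperature entered the choice of genes, as a minimum and as the denominators of the responses, and cannot be separated from it. Differences between organs and lines at control are therefore given as descriptions, and a call says only that the fit over all genes put the adjusted p under 0.05. Per kilobase of gene length, the mean of hindgut and tubule control levels was highest in GF17998 (726 CPM per kb), GF10534 (694), GF19635 (526), GF15589 (516) and GF11895 (342). GF17399, GF17478 and GF15478 were lowest, at 8.71, 5.07 and 5.05 CPM per kb. By tissue, GF17998 stood at 606, 845 and 238 CPM per kb in hindgut, tubule and body, and GF10534 at 820, 567 and 1420 CPM per kb. GF19635 stood at 588, 463 and 848 CPM per kb and GF15589 at 221, 812 and 731 CPM per kb. GF11895 was most abundant in the tubule, with 642 CPM per kb there, 41.3 in the hindgut and 39.4 in the body.

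In the edgeR fit of the 36 organ libraries, 49 of the 60 genes differed between hindgut and tubule at control, 29 of them lower and 20 higher in the hindgut, where 80.4% of the 11942 genes tested were called (37.1% lower and 43.3% higher). The split turned with the scaling, to 24 lower and 22 higher with DESeq2 size factors and to 20 lower and 28 higher with column sums, which moved the median difference of all tested genes from 0.13 to 0.20 and 0.33. The largest differences kept their direction under each scaling. GF11895 was lower in the hindgut by -4.15 ± 0.12 on the log2 scale, with control levels of 133, 159 and 208 CPM in the hindgut and 1810, 2550 and 3440 CPM in the tubule. GF25236 was lower by -3.59 ± 0.14, with 19.1, 37.2 and 53.1 CPM against 270, 360 and 471 CPM. GF21920 was lower by -2.90 ± 0.08. On the other side, GF14816 was higher in the hindgut by 2.60 ± 0.11, with 114, 124 and 147 CPM in the hindgut and 14.6, 18.7 and 24.3 CPM in the tubule. GF11176 was higher by 2.25 ± 0.20 and GF23699 by 1.15 ± 0.09. In each of these 6 genes the 9 hindgut and the 9 tubule control libraries did not overlap.

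**Figure D4:**
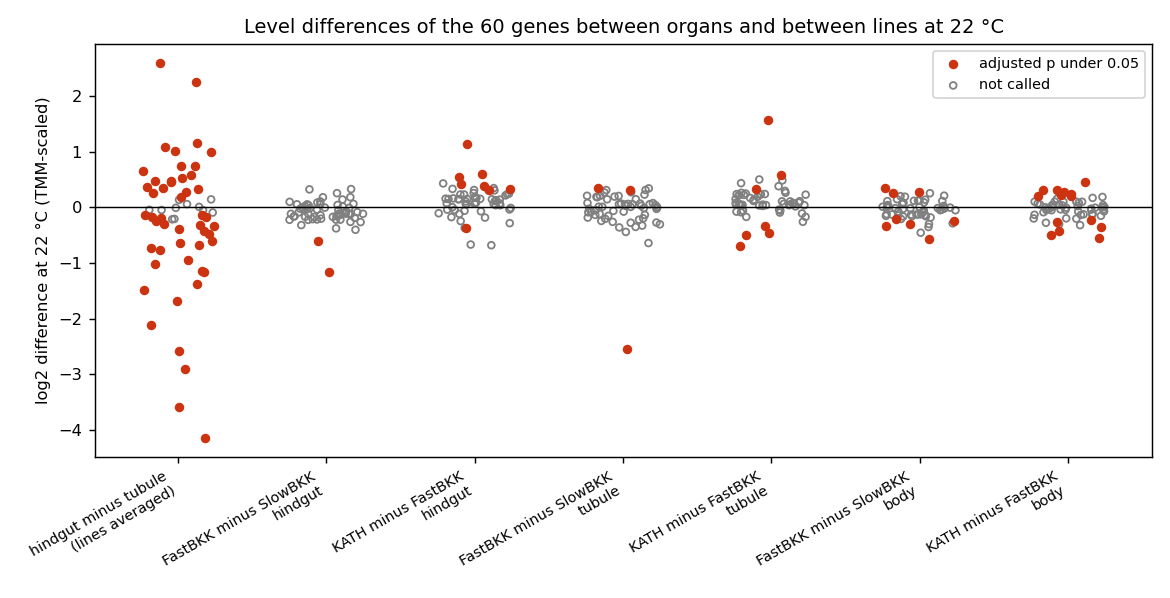
Fitted log2 difference at 22 °C (TMM-scaled, vertical axis) of the 60 genes between hindgut and tubule and between lines within a tissue (columns), with filled red points for an adjusted p under 0.05 and open grey points for the rest. The organ column runs from -4.15 to 2.60 with 49 filled points, and the line columns stay mostly within 1 of 0, the lowest point being GF11176 at -2.55 in FastBKK minus SlowBKK tubule.

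The line contrasts at control temperature compared tolerance within Bangkok (FastBKK minus SlowBKK) and population among tolerant lines (KATH minus FastBKK), on the same control libraries that the choice of genes had used. They share the FastBKK libraries. FastBKK minus SlowBKK called 2 of the 60 genes in hindgut (6.0% of genes tested were called), 3 in tubule (7.0%) and 8 in body (14.2%). KATH minus FastBKK called 8 in hindgut (9.7%), 7 in tubule (11.9%) and 14 in body (33.5%). Relative to SlowBKK, FastBKK was lower for the 2 hindgut genes (3.35% of genes tested were called lower and 2.65% higher), lower for 1 and higher for 2 in the tubule (2.93% and 4.07%), and lower for 5 and higher for 3 in the body (6.93% and 7.26%). Relative to FastBKK, KATH was lower for 1 and higher for 7 in the hindgut (4.54% and 5.16%), lower for 4 and higher for 3 in the tubule (6.92% and 4.96%), and lower for 6 and higher for 8 in the body (19.0% and 14.5%). The split of 1 lower and 2 higher in FastBKK tubule became 2 lower and 1 higher with DESeq2 size factors, and that of 6 and 8 in KATH body became 4 and 10 with column sums.

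GF25236, far more abundant in the tubule than in the hindgut, had a FastBKK control hindgut level of 21.8, 19.1 and 21.9 CPM. SlowBKK held 53.1, 43.3 and 37.2 CPM and KATH 31.9, 46.7 and 52.0 CPM, so the FastBKK libraries lay below all the others. FastBKK was below SlowBKK, with a fitted difference of -1.16 ± 0.24, and KATH above FastBKK, with 1.14 ± 0.24. The first was no longer called without SlowBKK control hindgut replicate 1. As a measure of tubule RNA in these hindgut libraries, 60 genes abundant in the tubule (mean of 50 CPM or more) and nearly silent in the hindgut (median below 1 CPM) stood at a median of 0.0313% to 0.19% of their tubule level in the 9 control hindgut libraries, and at 0.0552% to 0.102% in the 3 FastBKK ones.

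GF13048 behaved alike at a low level in the hindgut, with 12.9, 10.5 and 8.72 CPM in FastBKK, 14.7, 16.4 and 15.9 CPM in SlowBKK and 15.6, 14.3 and 15.0 CPM in KATH. FastBKK was below both other lines, by -0.61 ± 0.14 against SlowBKK, and KATH was above FastBKK by 0.55 ± 0.14. The first difference was not called without FastBKK control hindgut replicate 3, the library with the body transcripts, nor without SlowBKK control hindgut replicate 1 or 2. In cold tubule the mean of GF13048 over the 9 libraries was 5.19 CPM, just above the minimum of 5 CPM. There FastBKK held 4.81, 3.14 and 3.55 CPM, SlowBKK 5.68, 6.1 and 4.68 CPM and KATH 5.4, 6.07 and 7.32 CPM. GF13048 thus met the minimum through SlowBKK and KATH, so its line differences are tied to its choice. GF15589 was higher in KATH hindgut, with 468, 450 and 466 CPM against 332, 297 and 330 CPM in FastBKK, a difference of 0.61 ± 0.10.

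GF11176 was the gene with the largest line difference. In control tubule it stood at 15.3, 17.1 and 19.0 CPM in SlowBKK, 8.16, 9.65 and 8.97 CPM in KATH and 4.34, 3.12 and 1.51 CPM in FastBKK, and the 3 lines did not overlap. FastBKK minus SlowBKK was -2.55 ± 0.45 and KATH minus FastBKK was 1.58 ± 0.44. In control hindgut, where the gene was more abundant, the lines held 41.6, 37.5 and 35.2 CPM in FastBKK, 36.4, 41.3 and 43.8 CPM in SlowBKK and 44.7, 55.1 and 45.9 CPM in KATH. FastBKK and SlowBKK overlapped there. The median of the 283 hindgut genes in the control tubule libraries was 0.048% to 0.131% of the hindgut level in SlowBKK and 0.045% to 0.333% in FastBKK. After cold, 1 SlowBKK tubule library held 22.3 CPM of GF11176, more than any control tubule library, beside 4.95 and 9.85 CPM in the other replicates. The mean of the 9 cold tubule libraries was 5.55 CPM, just above the minimum of 5 CPM. FastBKK (1.45, 0.791 and 1.14 CPM) and KATH (2.71, 3.12 and 3.69 CPM) lay below that minimum after cold. The gene thus met it through SlowBKK, and without the SlowBKK library at 22.3 CPM it would have missed it. SlowBKK was also the line in which its control tubule level was highest, so its line difference is tied to its choice.

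GF18390 was lower in KATH than in FastBKK in all 3 tissues. In control hindgut KATH held 28.3, 29.3 and 29.8 CPM and FastBKK 39.5, 39.9 and 39.5 CPM, a difference of -0.36 ± 0.08. In control tubule KATH held 48.2, 58.7 and 48.3 CPM and FastBKK 77.2, 71.7 and 64.4 CPM, a difference of -0.46 ± 0.09. In control body KATH held 41.6, 40.1 and 42.6 CPM and FastBKK 54.7, 46.3 and 51.4 CPM, a difference of -0.35 ± 0.06. No pair of these groups overlapped. Against SlowBKK, FastBKK was higher in the tubule by 0.36 ± 0.09 and lower in the body by -0.21 ± 0.06, and whether these differ was not tested. The tubule difference from SlowBKK was lost without any 1 of 6 libraries, which were FastBKK control tubule replicates 2 and 3, SlowBKK control tubule replicates 2 and 5, replicate 4 of FastBKK cold tubule and replicate 1 of KATH cold tubule.

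In the tubule, GF21304 was also lower in KATH, with 40.2, 43.7 and 40.2 CPM against 59.2, 72.2 and 68.7 CPM in FastBKK, a difference of -0.70 ± 0.10. In the body, GF11895 was lower in FastBKK (135, 119 and 106 CPM) than in SlowBKK (186, 180 and 175 CPM) by -0.56 ± 0.11, and KATH, with 176, 175 and 164 CPM, was above FastBKK by 0.46 ± 0.11. The groups did not overlap in any of these comparisons. GF14816 was lower in FastBKK body (139, 118 and 115 CPM) than in SlowBKK body (157, 151 and 169 CPM) by -0.33 ± 0.07. GF13639 was lower in KATH body (13.6, 13.6 and 12.6 CPM) than in FastBKK body (19.5, 18.2 and 18.7 CPM) by -0.56 ± 0.09.

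Counts of line differences among so few called genes moved with single libraries. For FastBKK minus SlowBKK hindgut, the 2 calls fell to 0 without SlowBKK control replicate 1 and to 1 without SlowBKK control replicate 2 or FastBKK control replicate 3. For KATH minus FastBKK hindgut, the 8 calls fell to 4 without KATH control replicate 4 and to 5 without replicate 5. For FastBKK minus SlowBKK tubule, the 3 calls fell to 1 without FastBKK control replicate 3 or SlowBKK control replicate 2 and rose to 5 without FastBKK cold replicate 1. For KATH minus FastBKK tubule, the 7 calls fell to 3 without FastBKK control replicate 4 or KATH control replicate 1 and to 2 without KATH control replicate 4 or 5. For FastBKK minus SlowBKK body, the 8 calls fell to 3 without FastBKK control replicate 4 and to 5 without SlowBKK control replicate 2 or 4.

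By position, the 60 genes were spread over 16 scaffolds. Scaffold_13266, scaffold_13337 and scaffold_13340 held 13 genes each (21.7% each), close to their share of the candidates (19.4%, 19.6% and 19.5%). By length, the genes ranged from 449 bases (GF13256) to 11851 bases (GF15478), with a median of 2168 bases. Short genes under 1000 bases made up 16 of the 60 (26.7%, against 17.3% of the candidates), and genes of at least 2000 bases 32 (53.3%, against 48.8%).

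The limit of 1000 bases was chosen after the values were seen, and nothing about these 16 short genes was tested. All 16 had a higher control CPM in the body than in the hindgut and 15 a higher one than in the tubule, against 17 and 14 of the 44 longer genes and 346 and 340 of the other 598 short candidates. Body and organ RNA were extracted with different kits, so kit and tissue cannot be told apart in these counts. Their log2 ratio of hindgut to tubule control CPM ran from -0.56 to 0.53, inside the range of the longer genes (-3.96 to 2.80). Their median cold response in FastBKK, SlowBKK and KATH was -0.56, -0.44 and -0.64 for the hindgut and -0.42, -0.53 and -0.76 for the tubule. The other 598 short candidates had medians above 0 in each of these 6 comparisons (0.18 to 0.42).

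Between replicates, short genes moved together, among the candidates at large as well. Taking each library's deviation from the mean of its group, the median Pearson's r over pairs of genes across the 18 libraries of a tissue was 0.52 (hindgut), 0.79 (tubule) and 0.63 (body) for the 16 short genes. It was 0.28, 0.42 and 0.25 for the other short candidates, and 0.22, 0.18 and 0.16 for the 44 longer genes. These values are descriptions over genes that share library and depth. Across the 18 libraries, the mean deviation of the 16 short genes had an r of 0.65 (hindgut), 0.78 (tubule) and 0.60 (body) with that of the other 598 short candidates, and that of the 44 longer genes had 0.70, 0.69 and 0.82 with the other longer candidates. The deviations were thus shared with candidates outside the 60. The mean deviation of the short genes and that of the longer genes had an r of -0.59 (hindgut), -0.56 (tubule) and -0.55 (body). They had opposite signs in 14 hindgut and 11 tubule libraries of 18. No such count is given for the body, where some mean deviations were 0 after rounding. FastBKK control tubule replicate 3 was the farthest, with the 16 short genes 0.21 above and the longer ones -0.19 from their group mean and the other short candidates 0.18 above theirs, and FastBKK control hindgut replicate 3, the library with the body transcripts, had 0.05 and -0.23. The part of RNA quality or library preparation in these deviations was not tested.

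**Figure D5:**
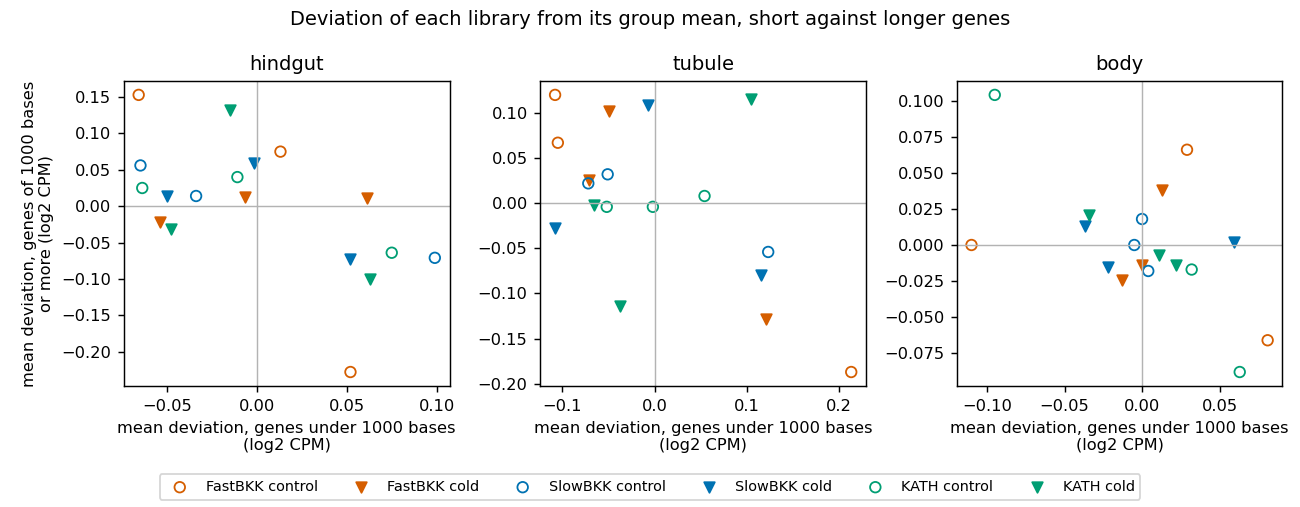
Mean deviation of each library from its group mean (log2 CPM) over the 16 genes under 1000 bases (horizontal axis) and over the 44 longer genes (vertical axis), 1 panel per tissue, with open circles for control and filled triangles for cold libraries. In hindgut and tubule most points lie in the upper left and lower right parts, where the deviations have opposite signs (14 and 11 of 18 libraries). In the body some points lie on or close to an axis. FastBKK control tubule replicate 3 is farthest to the right at 0.21.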

How the data were processed

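The authors deposited raw whole-number counts per gene and library, with FlyBase identifier, symbol, scaffold and gene length (in bases, another column of the deposited table), per the file headers. Per the labels' protocols the libraries were made by poly-A enrichment, and the submitters' processing notes name FastQC 0.11.9. The aligner, counter, build and use of strand are not given in the sources used here, so reads shared by overlapping or near-identical genes may be split.

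From these counts, CPM used column sums. Each tissue (18 libraries, 6 groups) and both organs together (36 libraries) were fitted with edgeR 4.0.16 in R 4.3.3 (filterByExpr, TMM, glmQLFit and glmQLFTest, two-sided, Benjamini-Hochberg adjustment over all genes tested). SE is the fitted log2 difference divided by the square root of F. The code was tested on simulated counts. DESeq2 1.42.0 was an alternative.

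The genes, lists and named items were chosen with earlier results of these data known. Named were the 10 leading genes, the 5 most abundant per kb, the 2 called line differences of smallest p per tissue and contrast, the 3 highest and 3 lowest organ differences, the 3 widest body ranges and the last 2 inside the limit with the next 2 outside. Gene lists and cell type markers planned by product name were not applied, because 0 of 14365 identifiers matched the reference table. GF12951, GF14857, GF15946, GF13564, GF10712, GF13256, GF17478, GF22076 and those named for a missed call or a line-dependent body response were named after their values were seen.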

Additional observations from a re-analysis of the deposited data

Results flagged for a closer look

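The cold response of the body differed between lines, in edgeR's test of the difference over all genes, for 10 of the 60 genes. The choice of genes used the same contrast through its line average, so these are descriptions. Both counts below lie near or under the share called among all tested genes, so they do not set the 60 genes apart. FastBKK minus SlowBKK called 1 gene (3.22% of 13435 genes tested). It was GF17998, with a difference of 0.50 ± 0.11 (SE). Its SlowBKK body libraries went from 1070, 1040 and 952 CPM to 718, 735 and 697 CPM, and its FastBKK ones from 920, 890 and 798 CPM to 863, 873 and 851 CPM. Only SlowBKK separated the temperatures.

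KATH minus FastBKK called 9 genes (14.1% of genes tested). The difference was 0.48 ± 0.13 for GF13639, 0.48 ± 0.12 for GF15589, 0.48 ± 0.14 for GF26715, 0.44 ± 0.13 for GF10712, 0.39 ± 0.09 for GF13000, 0.34 ± 0.10 for GF19635 and 0.31 ± 0.09 for GF10534, and it was -0.34 ± 0.09 for GF14814 and -0.20 ± 0.07 for GF21304. In GF15589 the FastBKK body libraries went from 1210, 998 and 1220 CPM to 951, 885 and 960 CPM and the KATH ones from 1230, 1270 and 1190 CPM to 1370, 1340 and 1160 CPM. In GF13000 FastBKK held 162, 164 and 178 CPM at control and 166, 164 and 170 CPM after cold, while KATH held 168, 161 and 142 CPM at control and 187, 193 and 186 CPM after cold.

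Of these differences, GF13000 was called with each of the 18 body libraries left out in turn. GF15589 was called in 16 of these 18 fits, GF13639 and GF14814 in 15, GF17998 in 13, GF26715 in 11, GF10534 and GF19635 in 8, GF10712 in 7 and GF21304 in 5. The 9 calls fell to 2 without FastBKK cold body replicate 2, to 3 without FastBKK cold body replicate 4 or KATH cold body replicate 4, and to 4 without FastBKK control body replicate 1. The single GF17998 call was lost without FastBKK cold replicate 2, FastBKK control replicate 4, SlowBKK cold replicate 4 or SlowBKK control replicates 2 or 3. FastBKK minus SlowBKK called 2 genes without FastBKK control replicate 1, KATH control replicate 4 or SlowBKK cold replicate 3, and 3 genes without KATH control replicate 1.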

How the results depend on the processing

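Membership depended most on the body limit: 36 of the 60 genes remained with a limit of 0.2 and 30 with 0.5. It was 43 with TMM-scaled CPM, 48 with medians of 3 libraries, 54 with a minimum of 10 CPM, 56 with 2 CPM added and 53 to 60 with 1 library left out. With TMM-scaled CPM, 10 of the 60 no longer met the conditions for a candidate. All 60 kept 6 organ responses below 0 there, which was fixed beforehand, because TMM lowers the organ responses throughout. Leaving out the 2 cold tubule libraries with hindgut transcripts was chosen after seeing the data. It gave 37 to 40 genes wholly lower in the tubule, against 35.

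Replicate numbers are not said to mark a shared source, and same-numbered libraries correlated at -0.256 to 0.392 in their deviations, so they were not treated as pairs. With the replicate block, calls fell to 0 for FastBKK minus SlowBKK control hindgut, 3 for KATH minus FastBKK control hindgut, 2 for KATH minus FastBKK control tubule and 0 for the FastBKK minus SlowBKK body response. Among named genes, the block ended the FastBKK minus SlowBKK control calls of GF13048 (-0.502) and GF25236 (-1.147) in hindgut and of GF18390 in tubule (0.335), the KATH minus FastBKK control call of GF18390 in tubule (-0.444), and the KATH cold calls of GF16233 in body (0.303) and GF17521 in tubule (-0.457), while GF11895 gained one in KATH tubule (-0.592). With DESeq2, calls were 6 for FastBKK minus SlowBKK control tubule and, for line differences in response, 2 and 1 in hindgut, 1 in FastBKK minus SlowBKK tubule and 3 in FastBKK minus SlowBKK body. The cause was not tested.

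With 1 library left out, calls after cold were 54 to 59, 59 to 60 and 56 to 59 in hindgut of FastBKK, SlowBKK and KATH, 54 to 59, 57 to 59 and 55 to 59 in tubule, and 25 to 33, 25 to 33 and 23 to 29 in body. FastBKK minus SlowBKK control calls were 0 to 3 in hindgut, 1 to 5 in tubule and 3 to 10 in body. KATH minus FastBKK ones were 4 to 10, 2 to 7 and 11 to 17. Calls on response differences were 0 to 4, 0 to 0 and 0 to 3 for FastBKK minus SlowBKK and 0 to 1, 0 to 1 and 2 to 10 for KATH minus FastBKK. Hindgut minus tubule calls were 45 to 49 over the 18 control libraries. Cold libraries, which enter it only through the spread, were not left out.

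Of 2967 values of named genes under an alternative, 2912 stayed on their side of the threshold, 41 lost and 8 gained a call, and 6 changed sign, none of them called. GF16233 in FastBKK body became -0.022 without FastBKK cold replicate 1 and -0.076 without FastBKK control replicate 4 (range with 1 library left out, -0.076 to 0.182). GF19037 in KATH body became 0.027 with the replicate block, 0.116 without KATH cold replicate 3, 0.033 without KATH cold replicate 4 and 0.081 without KATH control replicate 4 (range -0.169 to 0.116). Depth limits GF11176 and GF13048 in the tubule most among the named genes, at levels down to 0.791 and 3.14 CPM.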
